A study of Mus musculus with 31 samples.

Results

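The 10 T cell identity genes described here were Cd3d, Cd3e, Cd3g, Cd8a, Cd8b1, Cd4, Cd2, Cd28, Lck and Foxp3, matched by gene name among the 46072 gene IDs listed for each library. They were measured by RNA-seq in 31 bulk tumors, 1 library per mouse. RM-9 is a mouse prostate cancer cell line and MC-38 a mouse colon cancer cell line. Both were grown as subcutaneous tumors on the right hind leg of male wild-type C57BL/6J mice obtained at 6 to 7 weeks of age, and a single dose of 15 Gy radiation (RT) was given once tumors were established. RM-9 tumors were collected from 4 unirradiated control mice, 4 mice at 3 h, 4 at 12 h and 3 at 24 h after RT. MC-38 tumors were collected from 4 mice in each of those groups. The controls carry the 3 h time label, so the 12 h and 24 h groups had no controls of their own age after the start of the experiment, and the 3 RT times of a model share 1 set of control mice. Each model is 1 cell line in 1 host strain, and whole tumor tissue was sequenced without sorting.

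The T cell receptor recognises peptides held by major histocompatibility molecules but has almost no signalling tail of its own. It reaches the cell surface only with the CD3 chains encoded by Cd3d, Cd3e and Cd3g, which carry the signalling motifs. The kinase Lck, brought to the receptor by the coreceptors CD4 and CD8, phosphorylates those motifs. CD4 marks helper and regulatory T cells, and the CD8 alpha and beta chains together mark conventional cytotoxic T cells. CD2 is an adhesion receptor of T and NK cells, CD28 gives the costimulatory signal, and Foxp3 is the transcription factor that defines regulatory T cells. Lymphocytes are among the more radiation-sensitive cells of the body. In bulk tissue, fewer T cells and less RNA per T cell cannot be told apart.

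The 3 CD3 genes stand together on mouse chromosome 9, spanning 44969572 to 45009590 (40.0 kb, GRCm38). Cd3g (ENSMUSG00000002033, minus strand) and Cd3d (ENSMUSG00000032094, plus strand) point away from each other with 1361 bases between them, and Cd3e (ENSMUSG00000032093, minus strand) follows Cd3d. Cd8b1 (ENSMUSG00000053044) and Cd8a (ENSMUSG00000053977) lie on the plus strand of chromosome 6 between 71322836 and 71379171 (56.3 kb), and Cd4 (ENSMUSG00000023274) lies on the same chromosome at 124864692 to 124888221. Promoters from RefSeq (GRCm38.p6) matched 6 of the 10 genes. The 250 bases before the start of the 3 clustered CD3 genes and of Cd8a are shown. The mean of each CD3 gene was below controls at every RT time, and Cd8a separated the tumor models. Capitals mark each GGAAG, the core recognised by ETS factors, on either strand (CTTCC on the printed strand).
Cd3g, chr9:44980432-44980681, minus strand: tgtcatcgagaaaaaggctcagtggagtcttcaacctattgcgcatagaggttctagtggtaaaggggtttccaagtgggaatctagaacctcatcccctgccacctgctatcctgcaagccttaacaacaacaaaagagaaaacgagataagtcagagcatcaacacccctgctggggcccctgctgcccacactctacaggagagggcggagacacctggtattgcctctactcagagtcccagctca
Cd3d, chr9:44981536-44981785, plus strand: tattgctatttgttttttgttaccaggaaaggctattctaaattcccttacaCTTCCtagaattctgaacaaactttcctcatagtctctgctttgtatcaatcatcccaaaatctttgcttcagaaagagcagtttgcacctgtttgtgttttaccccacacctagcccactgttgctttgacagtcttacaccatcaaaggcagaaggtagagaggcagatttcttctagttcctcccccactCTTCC
Cd3e, chr9:45009612-45009861, minus strand: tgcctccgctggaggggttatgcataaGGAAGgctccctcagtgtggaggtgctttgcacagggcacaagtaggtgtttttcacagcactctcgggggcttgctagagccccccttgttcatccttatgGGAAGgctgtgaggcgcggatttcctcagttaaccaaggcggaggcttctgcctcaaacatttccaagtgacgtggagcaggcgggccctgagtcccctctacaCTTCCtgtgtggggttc
Cd8a, chr6:71373177-71373426, plus strand: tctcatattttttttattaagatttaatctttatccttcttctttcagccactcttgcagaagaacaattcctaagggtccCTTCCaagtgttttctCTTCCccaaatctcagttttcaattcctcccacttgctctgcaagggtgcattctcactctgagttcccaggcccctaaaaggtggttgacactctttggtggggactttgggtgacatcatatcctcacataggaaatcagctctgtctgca
GGAAG occurred 2 times before Cd3d, 3 times before Cd3e, 2 times before Cd8a and 0 times before Cd3g. It occurred in 64.1% of all 32851 promoter windows of this length. The letters TGTGGT, a RUNX core held by 14% of windows, and CAGCTG, an E-box held by 13%, were also searched on both strands and were absent from these 4 windows. A match is a description of letters only.

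Sequencing depth was close among libraries, at 21.4 to 29.4 M reads (median 24.1 M). Values are TPM, a transcript abundance scaled by transcript length and by the library, which sums to a fixed total within each library. In RM-9 libraries, mitochondrially encoded genes took 47.3 to 57.2% of that total, against 22.5 to 40.6% for MC-38, and all other genes share the remainder. By group, the mitochondrial share ranged over 47.8 to 50.5% in RM-9 controls against 52.4 to 57.2% at 12 h, and over 25.7 to 40.6% in MC-38 controls against 23.0 to 25.9% at 12 h. Member levels were low. Cd2 in RM-9 controls corresponded to an estimated 54.4 to 121 reads and in MC-38 controls to 56.1 to 116 reads. A filter on genes with a mean of at least 0.5 TPM left 5 members for testing in RM-9 (Cd3d, Cd3g, Cd4, Cd2 and Lck) and 9 in MC-38 (every member except Foxp3). The summed level of 8 skeletal muscle genes varied widely, from 253 to 2422 TPM in RM-9 controls and 2.75 to 987 TPM at 12 h, and from 19.2 to 12316 TPM in MC-38 controls and 5.51 to 506 TPM at 12 h. No muscle gene passed the test at any RT time, and counts from fits with a muscle score as covariate are given where they changed.

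**Figure D1:**
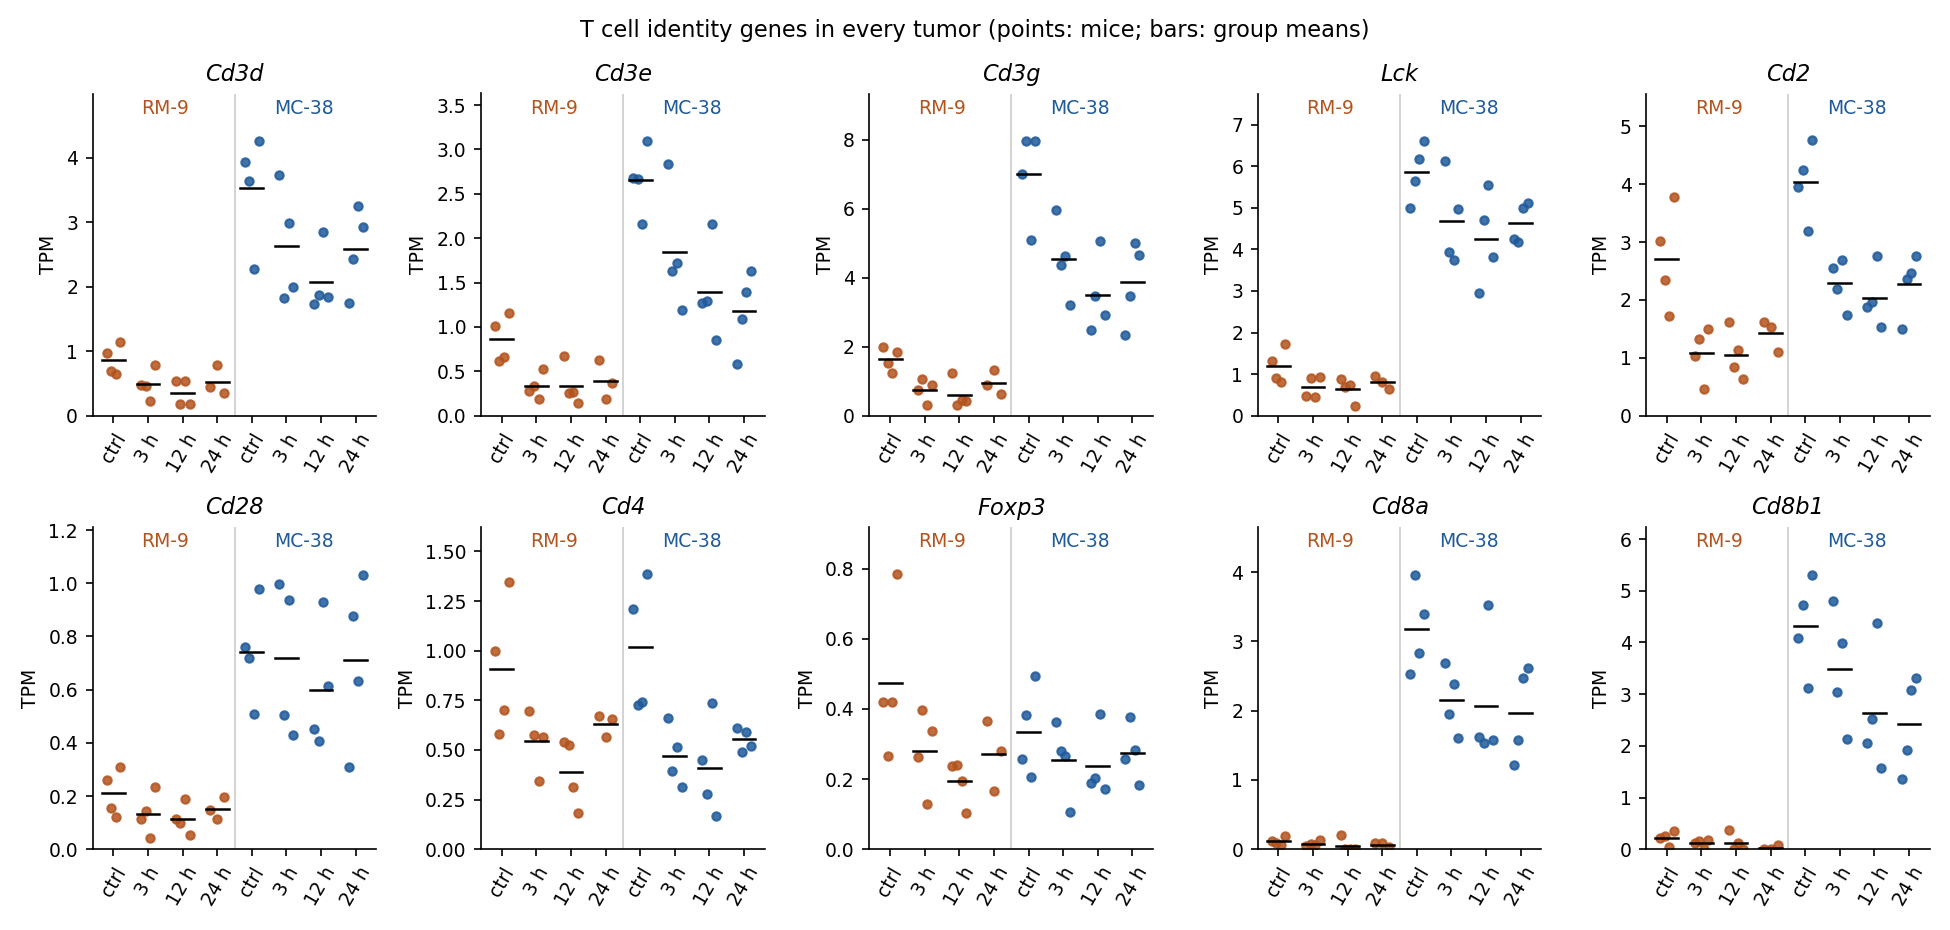
TPM of the 10 T cell identity genes in each mouse (points) by model and group, with group means (bars). MC-38 controls stand above RM-9 controls for most genes, and no RT mouse reaches its lowest control for Cd2, which lies at 1.72 to 3.77 TPM in RM-9 controls and 0.629 to 1.61 TPM at 12 h.

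Unirradiated MC-38 tumors carried more transcript of the CD3 genes, Lck and above all the CD8 genes than RM-9 tumors, while the mice of the models overlapped for Cd4 and Foxp3. Cd8a was 2.52, 3.96, 2.83 and 3.40 TPM in the 4 MC-38 controls and 0.121, 0.0911, 0.0573 and 0.193 TPM in the 4 RM-9 controls. Every MC-38 mouse was far above every RM-9 mouse, and the means of 3.18 ± 0.633 (SD, n = 4) and 0.116 ± 0.0577 TPM stood in a ratio of 27.5. Cd8b1 was 4.09, 4.73, 3.13 and 5.30 TPM in MC-38 and 0.224, 0.262, 0.0507 and 0.351 TPM in RM-9, a ratio of means of 19.4, again without overlap. On the log2(TPM + 0.5) scale, which understates the change of low genes, limma gave a difference of 2.57 (SE 0.20) for Cd8a and 2.73 (SE 0.25) for Cd8b1. Both passed the level filter only through MC-38, so these are descriptions.

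The pan-T cell genes differed less. Lck was 5.85 ± 0.686 TPM in MC-38 and 1.18 ± 0.421 TPM in RM-9 controls (log2 difference 1.94, limma adjusted p = 3.53e-09), and Cd3g was 7.01 ± 1.35 against 1.66 ± 0.336 TPM (1.79 on the same scale). Cd3d was 3.53 ± 0.874 against 0.864 ± 0.239 TPM and Cd3e 2.65 ± 0.381 against 0.861 ± 0.265 TPM, each with every MC-38 mouse above every RM-9 mouse. Cd28, 0.741 ± 0.193 against 0.212 ± 0.0872 TPM, did not overlap either. Cd2 was the exception among the pan-T genes, at 4.03 ± 0.650 against 2.71 ± 0.885 TPM, with 1 RM-9 mouse inside the MC-38 range. Its log2 difference of 0.53 (limma adjusted p = 0.0392) was below the all-gene median of 0.63. Cd4 overlapped between the models: 1.21, 0.727, 0.741 and 1.39 TPM in MC-38 against 0.996, 0.580, 0.704 and 1.34 TPM in RM-9 (log2 difference 0.11, limma adjusted p = 0.603). Foxp3 was 0.335 ± 0.130 TPM in MC-38 and 0.473 ± 0.221 TPM in RM-9, with overlapping mice (two-sided exact permutation p = 0.371).

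Cd3e, like the CD8 genes, entered the fit of both models only through its level in MC-38. Of the 5 members that passed the filter in each model on its own (Cd3d, Cd3g, Cd4, Cd2 and Lck), 4 were higher in MC-38, beside 64.7% of all genes tested. Of these 5, Cd3d, Cd3g and Lck had every MC-38 control above every RM-9 control, beside 50.9% of all genes tested. For each of them the two-sided exact permutation p was 0.0286, the smallest that 4 mice against 4 allow. Cd3e, Cd8a, Cd8b1 and Cd28 did not overlap either, but they lay under the filter in RM-9, so this is a description. Because the median gene was itself higher, TPM were also scaled by median ratios, which moved the all-gene median to 0.02. The CD3, CD8 and Lck differences kept their sign under each alternative tried, while Cd2 and Cd4 turned to -0.05 and -0.31. Scaled to pan-leukocyte genes, an alternative chosen after seeing the data, Cd4 was lower in MC-38 by -0.53 (limma adjusted p = 0.0189). The Cd3e difference was then 0.42, which is a description because Cd3e lay under the filter in RM-9. The deposited tables number the libraries of each model as a set of its own and name no sequencing run, so the tumor line and any difference in handling between these sets cannot be told apart.

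**Figure D2:**
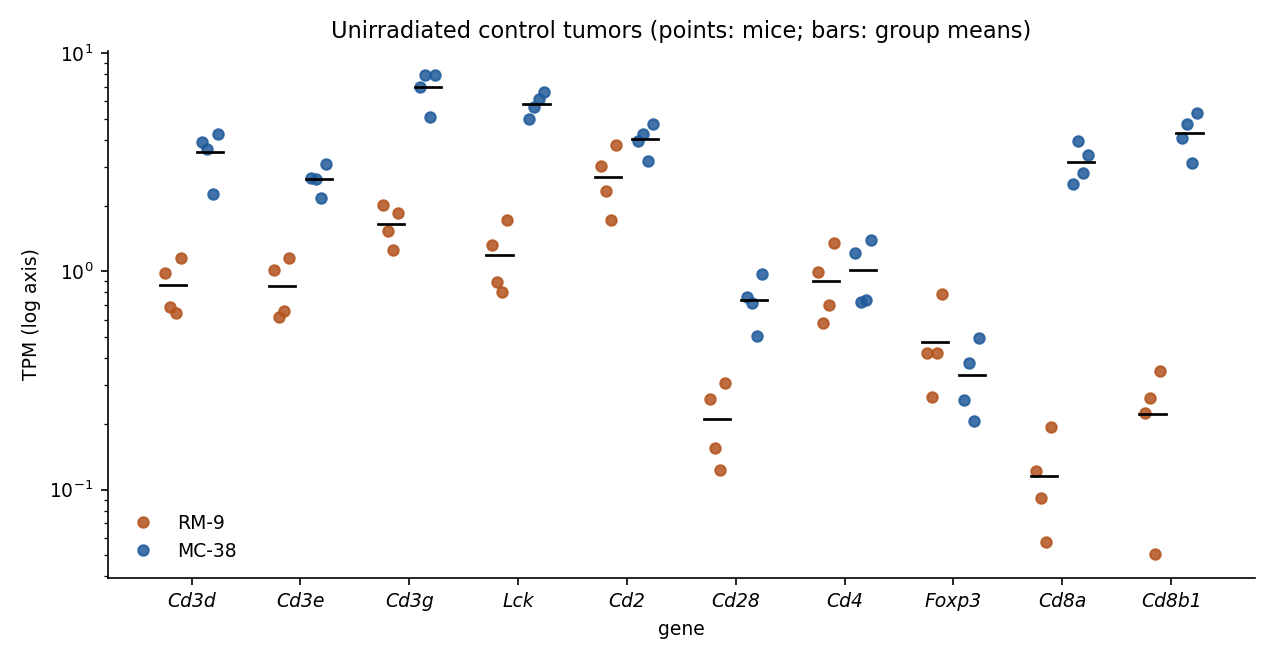
TPM of each T cell identity gene in the 4 unirradiated control mice of each model, on a log axis (points are mice, bars group means). The models are farthest apart for Cd8a and Cd8b1, with ratios of means of 27.5 and 19.4, and overlap for Cd2, Cd4 and Foxp3.

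The balance of coreceptors also differed. Cd8a made up 67.6 to 84.5% of the summed Cd8a and Cd4 TPM in MC-38 controls and 7.53 to 13.6% in RM-9 controls. These percentages compare levels of 2 different genes within a library on the TPM scale, which is per transcript length, and they depend on how reads were assigned to transcripts. Among MC-38 controls the members ranked Cd3g, Lck, Cd8b1, Cd2, Cd3d, Cd8a, Cd3e, Cd4, Cd28 and Foxp3 by mean TPM. Among RM-9 controls the order was Cd2, Cd3g, Lck, Cd4, Cd3d, Cd3e, Foxp3, Cd8b1, Cd28 and Cd8a. Neighbours in those orders overlapped between mice, except that Cd3e was above Cd4 and Cd28 above Foxp3 in every MC-38 control.

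After RT the mean TPM of all 10 members was lower than in controls at each of the 6 model and time combinations, although few single differences passed the test. The median change of the 10 means was -42.5%, -57.8% and -42.7% at 3, 12 and 24 h in RM-9 and -27.7%, -40.0% and -40.8% in MC-38. The 3 times of a model share their controls, so these values are not independent of each other.

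Among the CD3 chains, Cd3g had the highest TPM in the controls of both models. In MC-38 it was 7.0, 7.96, 5.10 and 7.96 TPM in controls, 5.97, 4.36, 4.63 and 3.20 at 3 h, 2.47, 3.48, 5.08 and 2.92 at 12 h, then 2.35, 3.48, 5.01 and 4.66 at 24 h. All mice at 12 h and 24 h were below the lowest control, the highest of them narrowly so. Cd3g fell at 12 h (log2 change -0.93, SE 0.24, limma adjusted p = 0.0172) and at 24 h (-0.80, SE 0.24, adjusted p = 0.0380), and the 3 h value was -0.58 (adjusted p = 0.215). In RM-9 it was 2.01, 1.53, 1.25 and 1.84 TPM in controls and 1.25, 0.296, 0.449 and 0.428 TPM at 12 h, where mouse 1 reached the lowest control. Its RM-9 log2 change at 12 h was -1.02 (SE 0.25, limma adjusted p = 0.0319), beside -0.81 (adjusted p = 0.124) at 3 h and -0.60 (adjusted p = 0.999) at 24 h. At 3 h, all 4 RM-9 mice (0.313 to 1.06 TPM) were below all controls.

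Cd3e encodes the chain on which assembly of the complex depends. In MC-38 its controls were 2.68, 2.66, 2.16 and 3.09 TPM and the 24 h mice 0.586, 1.09, 1.40 and 1.63 TPM, with no overlap. Cd3e fell in MC-38 at 12 h (log2 change -0.77, SE 0.25, limma adjusted p = 0.0341) and at 24 h (-0.95, SE 0.25, adjusted p = 0.0224). In RM-9 it did not pass the level filter. Its RM-9 controls were 1.01, 0.619, 0.656 and 1.16 TPM and its 3 h mice 0.276, 0.335, 0.188 and 0.526 TPM, which did not overlap (two-sided exact permutation p = 0.0286). Cd3d, the partner of Cd3e in the complex, went from 3.93, 3.64, 2.27 and 4.26 TPM in MC-38 controls to 1.73, 1.88, 2.85 and 1.84 TPM at 12 h, where only mouse 3 stood inside the control range. The change of -0.63 (SE 0.23) had a limma adjusted p of 0.0501. At 24 h Cd3d was 1.76 to 3.26 TPM in MC-38 (-0.38, adjusted p = 0.290), and in RM-9 at 12 h its change was -0.68 (adjusted p = 0.0590).

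The adhesion receptor gene Cd2 was the member whose groups separated most often. Its RM-9 controls were 3.02, 2.34, 1.72 and 3.77 TPM. The RM-9 mice had 1.02, 1.32, 0.461 and 1.5 TPM at 3 h, 1.61, 0.842, 1.14 and 0.629 at 12 h, then 1.63, 1.54 and 1.11 at 24 h. No irradiated RM-9 mouse reached the lowest control. In MC-38, Cd2 was 3.94, 4.24, 3.20 and 4.75 TPM in controls, 2.55, 2.19, 2.69 and 1.74 at 3 h, 1.88, 1.96, 2.75 and 1.53 at 12 h, then 1.49, 2.36, 2.47 and 2.75 at 24 h, again with no overlap at any time. Cd2 fell at 12 h in both models (RM-9 -1.04, SE 0.25, limma adjusted p = 0.0309, and MC-38 -0.85, SE 0.19, adjusted p = 0.0123) and at 24 h in MC-38 (-0.72, SE 0.19, adjusted p = 0.0224). At 3 h the log2 changes were -1.04 (limma adjusted p = 0.0940) in RM-9 and -0.70 (adjusted p = 0.129) in MC-38. In RM-9 at 24 h the change was -0.71 (adjusted p = 0.999), with a two-sided exact permutation p of 0.0571 where 3 mice against 4 allow 0.0286 at the smallest.

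Lck, the proximal kinase, did not pass the test at any time in either model. It was 5.01, 5.65, 6.16 and 6.60 TPM in MC-38 controls and 2.96, 4.72, 5.54 and 3.82 TPM at 12 h, where mouse 3 alone overlapped the controls (log2 change -0.44, limma adjusted p = 0.0706). Its 24 h value was 4.63 TPM on average against 5.85 in controls (-0.31, adjusted p = 0.266). In RM-9, Lck was 1.32, 0.895, 0.802 and 1.72 TPM in controls and 0.883, 0.701, 0.728 and 0.229 TPM at 12 h (-0.58, adjusted p = 0.104). Cd28 moved by -0.05, -0.18 and -0.06 at 3, 12 and 24 h in MC-38, with adjusted p from 0.535 to 0.919, and its controls (0.507 to 0.977 TPM) and 24 h mice (0.308 to 1.03 TPM) overlapped almost wholly. In RM-9, Cd28 was at most 0.309 TPM in any mouse and was not tested.

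Cd4 was 0.996, 0.580, 0.704 and 1.34 TPM in RM-9 controls and 0.540, 0.523, 0.311 and 0.184 TPM at 12 h, all below the lowest control. It fell at 12 h in RM-9 (log2 change -0.65, SE 0.19, limma adjusted p = 0.0470). In MC-38 it was 1.21, 0.727, 0.741 and 1.39 TPM in controls, 0.659, 0.393, 0.513 and 0.312 at 3 h, 0.449, 0.280, 0.737 and 0.170 at 12 h, then 0.612, 0.492, 0.593 and 0.520 at 24 h. The 3 h and 24 h mice were all below the controls, and at 12 h mouse 3 lay just above the lowest control. Cd4 fell at 12 h in MC-38 (-0.75, SE 0.21, limma adjusted p = 0.0215), beside -0.63 (adjusted p = 0.165) at 3 h and -0.50 (adjusted p = 0.123) at 24 h. Macrophages and dendritic cells can also express Cd4 in small amounts.

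Foxp3 lay under the filter in both models. Its RM-9 controls were 0.420, 0.265, 0.420 and 0.786 TPM and its 12 h mice 0.237, 0.240, 0.195 and 0.102 TPM, with no overlap (two-sided exact permutation p = 0.0286). In MC-38, the controls spanned 0.206 to 0.495 TPM and the 12 h mice 0.172 to 0.387 TPM. Relative to Cd4, Foxp3 was 0.515 ± 0.0890 (SD, n = 4) in RM-9 controls and 0.519 ± 0.0869 at 12 h. In MC-38 that ratio was 0.343 ± 0.135 in controls, 0.671 ± 0.261 at 12 h and 0.504 ± 0.181 at 24 h, and these ranges overlapped. At levels this low the ratio carries a large counting error.

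The CD8 genes overlapped between groups at every time. Cd8a was 2.52, 3.96, 2.83 and 3.40 TPM in MC-38 controls, 2.69, 1.96, 2.39 and 1.61 at 3 h, 1.61, 1.53, 3.53 and 1.57 at 12 h, then 1.22, 1.58, 2.47 and 2.62 at 24 h. At 12 h, 3 mice were well below the controls and mouse 3 was above all but 1 of them. The log2 changes were -0.47, -0.57 (limma adjusted p = 0.0830) and -0.60 (adjusted p = 0.115). Cd8b1 followed the same mice, with 2.05, 2.53, 4.39 and 1.57 TPM at 12 h and 1.37, 1.92, 3.07 and 3.32 TPM at 24 h against 3.13 to 5.30 TPM in controls (12 h -0.67, adjusted p = 0.0822, and 24 h -0.76, adjusted p = 0.0924). Cd8b1 per Cd8a held at 1.37 ± 0.259 in MC-38 controls and 1.21 ± 0.0643 at 24 h. In RM-9 neither CD8 gene reached the filter: Cd8a was listed at 0 in 3 of 4 mice at 12 h and at 0.203 TPM in the other, and Cd8b1 was listed at 0 in 2 of 4 mice at 12 h and in 2 of 3 at 24 h. Changes of CD8 transcripts in RM-9 were not detectable at this depth.

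By limma at an adjusted p under 0.05, 0 of 5 tested members passed in RM-9 at 3 h (lower genes were 0.0285% of all tested), 3 of 5 were lower at 12 h (8.3% of all tested) and 0 of 5 at 24 h (0% of all tested). Cd2, Cd3g and Cd4 were the 3 at 12 h. In MC-38, 0 of 9 passed at 3 h (0.0127% of all tested were lower), 4 of 9 were lower at 12 h (2.59%), namely Cd2, Cd3g, Cd4 and Cd3e, and 3 of 9 at 24 h (0.548%), namely Cd3e, Cd2 and Cd3g. No member passed in the higher direction, beside 28.5% of all genes tested at 12 h in MC-38. At an unadjusted p under 0.05, 5 of 5 members were lower in RM-9 at 3 h and 2 of 5 at 24 h, beside 3060 and 681 of all 14013 genes in either direction, and 3 of 9 in MC-38 at 3 h, beside 3130 of 15698. Dunnett comparisons on TPM gave 2, 1 and 3 members in those comparisons. They adjust over the times within a gene and not over genes, so they are less strict than the limma counts. They were run on the members only, so no share of all genes can be set beside them. Groups without overlap were also counted over the members that passed the filter. All RT mice were below all controls for 2, 3 and 1 of 5 members at 3, 12 and 24 h in RM-9 (2.87%, 19.4% and 2.24% of all genes tested). In MC-38 the counts were 2, 3 and 4 of 9 (0.975%, 1.97% and 0.898%). With the members under the filter, the RM-9 counts were 3, 4 and 1 of 10. None of the exact permutation p-values passed the Benjamini-Hochberg adjustment over the 70 member comparisons, the lowest adjusted value being 0.0870. The smallest p these group sizes allow is 0.0286, so most of the 70 would have had to reach it for any to pass. This outcome therefore says little about the members.

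**Figure D3:**
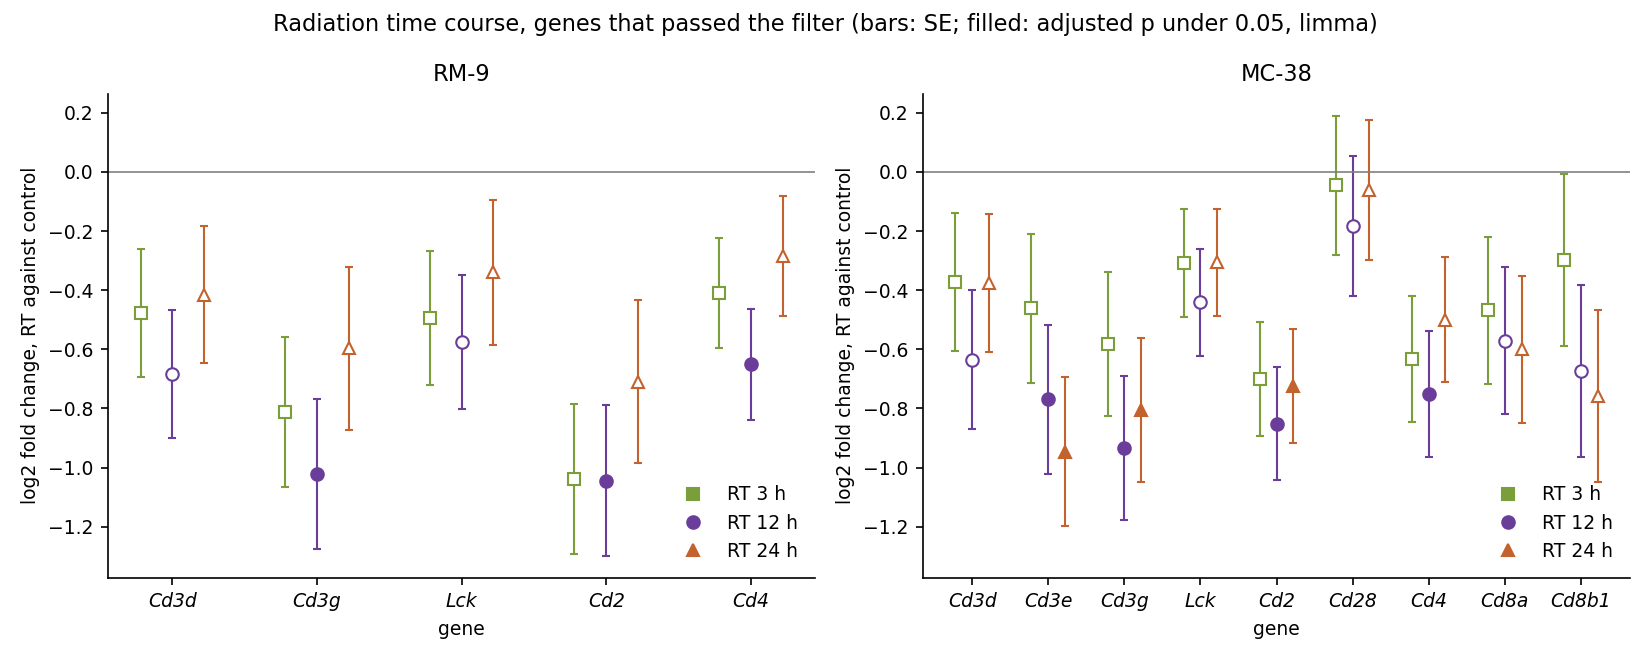
Change after RT against control for each tested member, as limma log2 fold change of TPM + 0.5 with its SE (bars), by model and time, with filled points for adjusted p under 0.05. Estimates are below 0 throughout, with filled points at 12 h in both models and at 24 h in MC-38, and Cd28 nearest to 0.

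The RM-9 calls at 12 h depended on the processing. The median gene moved by -0.19 there, and after median-ratio scaling 0 of 5 members passed, with Cd2 at -0.88 and Cd3g at -0.88 on the log2 scale. They were also 0 after rescaling without mitochondrially encoded genes, with no level filter, with only control and 12 h mice in the fit, and with the muscle score as covariate. Few genes of any kind were lower in some of these fits. Over all genes the lower calls were 6 under median-ratio scaling and 69 without mitochondrially encoded genes. They were 557 with no level filter, 276 with only the 2 groups and 0 with the muscle score, against 1163 in the main fit. Leaving out RM-9 control mouse 1, 2 or 4 or 12 h mouse 1, 2 or 4 left 0 calls, and leaving out 12 h mouse 3 left 1. Without RM-9 control mouse 1, 0 of all genes were called. In MC-38 the median gene moved the other way, by 0.33 at 12 h and 0.22 at 24 h, and median-ratio scaling raised the number of members called from 4 to 8 and from 3 to 6. Over all 15698 genes it raised the lower calls from 406 to 1541 at 12 h and from 86 to 1279 at 24 h. At 12 h in MC-38 the count was 8 without RT mouse 3, 1 without RT mouse 4 and 2 without control mouse 1, control mouse 4 or RT mouse 2. It was 2 when the fit held the muscle score or only control and 12 h mice, beside 193 and 176 lower among all genes. At 24 h it was 0 without control mouse 4 and 1 without RT mouse 2. It was 0 when the fit held only the control and 24 h mice, where 12 of all genes were lower. For the other fits without 1 mouse, all-gene counts are not given here, so their swings cannot be read as particular to the members.

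The RT effect was compared between models by an interaction term for the 5 members that passed the filter in each model on its own. The difference of log2 changes (MC-38 minus RM-9) ranged from -0.22 to 0.34 at 3 h, -0.10 to 0.19 at 12 h and -0.22 to 0.04 at 24 h, with SE of 0.27 to 0.38. By limma 0 of 5 passed at any time, beside 0%, 45.4% and 1.81% among all genes, and the unadjusted p was under 0.05 for 0 of them. The all-gene median of this difference was 0.13, 0.50 and 0.25 at 3, 12 and 24 h, so at 12 h all 5 members lay below the median gene. A p above the threshold does not show that the models responded alike. The added 0.5 TPM shrinks changes of low levels most, so differences can be understated for Cd3d, Cd3g and Lck, which were lower in RM-9. As ratios of mean TPM at 12 h to control, RM-9 and MC-38 gave 0.415 and 0.589 for Cd3d and 0.366 and 0.498 for Cd3g. The ratios were 0.536 and 0.728 for Lck, 0.389 and 0.503 for Cd2, and 0.430 and 0.402 for Cd4.

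Other leukocyte transcripts were also lower at 12 h. Of 6 pan-leukocyte genes, 3 were lower in RM-9 at 12 h and 6 in MC-38 at 12 h, and 0 in either model at 24 h. Their summed TPM was 276 to 393 in MC-38 controls, 147 to 272 at 12 h and 268 to 322 at 24 h, and in RM-9 215 to 275, 174 to 201 and 220 to 314. Of 8 macrophage genes, 5 were lower in RM-9 and 6 in MC-38 at 12 h, and 1 in MC-38 at 24 h, and the macrophage sum in MC-38 ran over 851 to 1361 TPM in controls, 310 to 736 at 12 h and 693 to 872 at 24 h. At 12 h the complement gene C1qa changed by -0.94 in RM-9 (limma adjusted p = 0.0303) and -1.25 in MC-38 (adjusted p = 0.00688), and the leukocyte gene Arhgdib by -0.45 (adjusted p = 0.0335) and -0.68 (adjusted p = 0.0196). Their part in the T cell values was not tested beyond a rescaling. Scaling each library to the pan-leukocyte genes left 0 members called at 12 h in either model and 0 at 24 h in MC-38. Few genes of any kind were lower under this scaling. Over all genes they numbered 0 in RM-9 at 12 h, 66 in MC-38 at 12 h and 8 in MC-38 at 24 h, while 13602 were higher in MC-38 at 12 h. At 12 h in MC-38 the log2 changes were then -0.18 for Cd2, -0.21 for Cd3g and -0.15 for Cd3e. At 24 h they were -0.61 for Cd2, -0.69 for Cd3g and -0.83 for Cd3e (limma adjusted p from 0.0629 to 0.117), beside -0.72, -0.80 and -0.95 without this scaling.

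The 3 CD3 genes were also set against the pan-leukocyte sum as a share. In MC-38 the share was 4.85, 4.28, 3.46 and 3.90% in controls, 4.30, 3.55, 3.14 and 2.96% at 3 h, 2.82, 4.51, 3.71 and 3.67% at 12 h, then 1.55, 2.61, 3.00 and 2.88% at 24 h. Only the 24 h mice were all below the controls. In RM-9 it was 1.45, 1.13, 1.19 and 1.60% in controls, 0.711, 0.793, 0.353 and 0.929% at 3 h, 1.3, 0.415, 0.619 and 0.431% at 12 h, then 0.624, 1.04 and 0.454% at 24 h. There the 3 h and 24 h mice were all below the controls and mouse 1 at 12 h was not. These shares are descriptions, and no test was run on them.

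Granzyme B, a killing protease of cytotoxic T and NK cells, went the other way from the CD3 genes in MC-38. Gzmb was 31.7 to 65.9 TPM in MC-38 controls and 66.9 to 132 TPM at 24 h, and rose at 24 h (log2 change 0.97, limma adjusted p = 0.0297). Per summed CD3 TPM it was 2.33, 4.53, 6.91 and 4.19 in controls, 13.9, 9.21, 7.54 and 15.6 at 12 h and 14.2, 16.1, 13.6 and 14.3 at 24 h, above every control from 12 h on. In RM-9 the same ratio was 2.87, 4.91, 3.73 and 2.61 in controls and 3.34, 7.96, 5.40 and 8.10 at 12 h, which overlap, and Gzmb itself was -1.17 (adjusted p = 0.0803) at 3 h. Of the 9 NK and cytotoxicity genes, 1 was lower and 0 higher at 12 h in MC-38 and 1, Gzmb, was higher at 24 h. Higher calls were common at 24 h in MC-38, at 1979 of all 15698 genes when limma was run without its intensity trend. Their sum was 82.6 to 161 TPM in MC-38 controls and 117 to 233 TPM at 24 h. The coreceptor balance moved little in MC-38, with Cd8a at 78.2 to 90.3% of the summed Cd4 and Cd8a TPM at 12 h and 66.6 to 83.5% at 24 h.

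**Figure D4:**
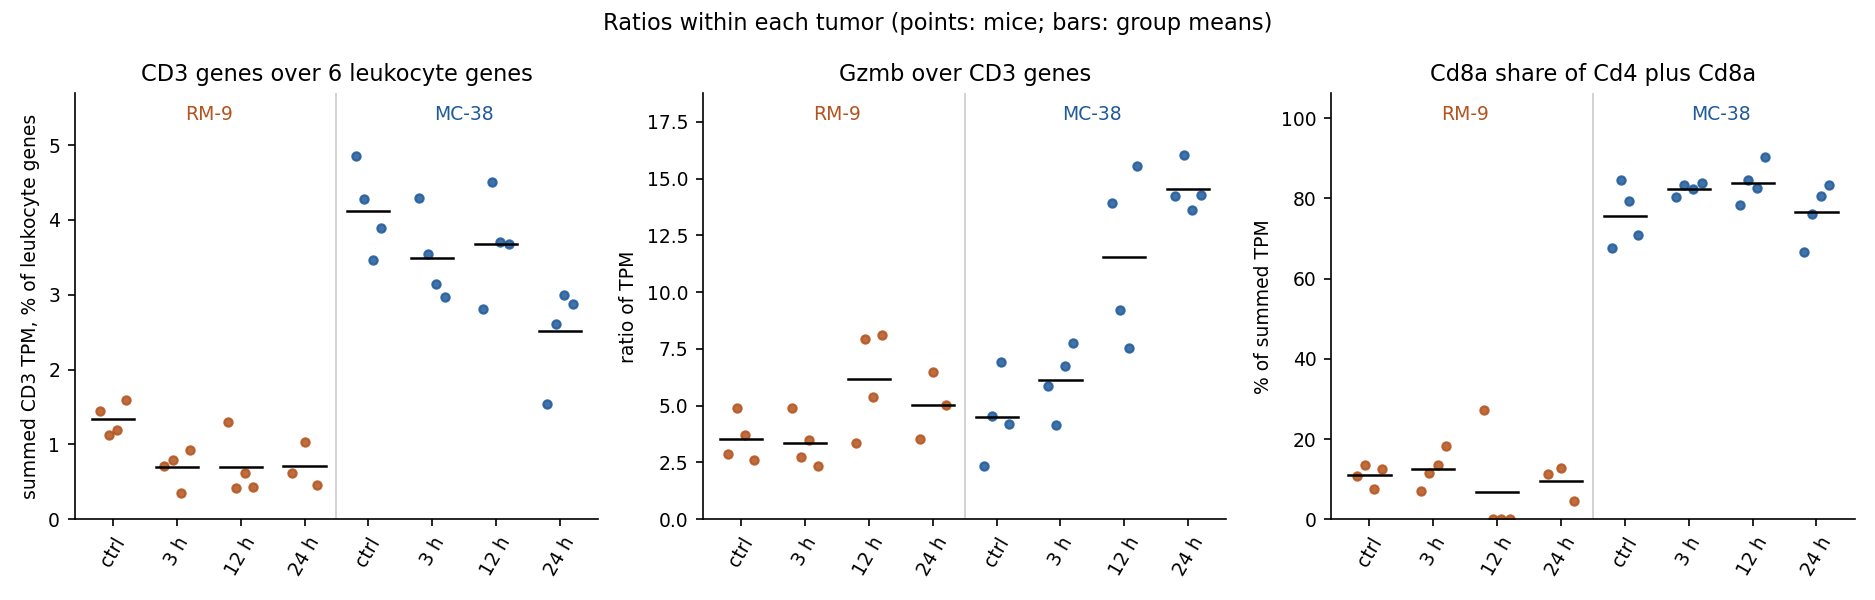
For each mouse by model and group, the summed CD3 TPM as percent of 6 pan-leukocyte genes, Gzmb TPM per summed CD3 TPM, and Cd8a as percent of Cd4 plus Cd8a TPM. MC-38 mice at 24 h lie below all their controls in the first panel (1.55 to 3.00%) and above them in the second (13.6 to 16.1).

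The rest of the T cell programme split into genes that moved like the members and genes that did not. It was taken from lists chosen with earlier results of these data known. The T cell receptor constant regions, which encode the receptor itself, were closest. In RM-9 at 12 h, 3 of the 3 tested were lower, Trac by -1.14 (SE 0.21, limma adjusted p = 0.0246), Trbc2 by -1.10 (adjusted p = 0.0246) and Trbc1 by -0.71 (adjusted p = 0.0448). In MC-38, 2 of 4 were lower at 12 h, Trbc2 (-0.97, adjusted p = 0.0224) and Trac (-0.68, adjusted p = 0.0384), and the same 2 at 24 h. Trbc1 and Trbc2 are near-identical, so reads may be divided uncertainly between them.

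Among 16 receptor signalling genes, 4 of 6 tested were lower in RM-9 at 12 h, including the adaptor gene Lat (-0.76, limma adjusted p = 0.0303). In MC-38, 3 of 14 tested were lower at 12 h, namely Lcp2 (the adaptor SLP-76, -0.84, adjusted p = 0.0216), Sh2d1a and Cd247, the zeta chain (-0.71, adjusted p = 0.0323), and 0 of 14 at 24 h. Surface and costimulation genes gave 1 lower of 5 tested (Il2rb) in RM-9 and 1 of 10 (Cd5) in MC-38 at 12 h, and 1 higher (Il7r) in MC-38 at 24 h. T lineage transcription factors did not follow the CD3 genes. In RM-9 0 of 5 passed at 12 h, and in MC-38 3 of 8 rose at 12 h, namely Gata3 (1.03, limma adjusted p = 0.00842), Tcf7 (0.91, adjusted p = 0.00523) and Ikzf2. At 24 h 2 rose, Gata3 (1.43, adjusted p = 0.000656) and Tcf7 (0.83, adjusted p = 0.00356), both also above the median gene shift of 0.22. Other cells than T cells can express these factors, and 28.5% of all genes rose at 12 h. At 24 h in MC-38, 1979 of all 15698 genes rose when limma was run without its intensity trend. Of 5 genes of naive and lymph node lymphocytes, 0 passed at 12 h in either model. In MC-38 at 24 h, 2 of them rose, S1pr1 among these, and 1, Klf2, fell (-0.76, limma adjusted p = 0.0125). The median log2 change of that list was 0.53. At 3 h in both models and at 24 h in RM-9, 0 genes of these T cell lists passed by limma.

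The sum of 7 B cell genes was 0.363 to 0.913 TPM in RM-9 controls, and in MC-38 it was 6.82 to 13.1 TPM in controls, 15.5 to 16.4 TPM at 12 h and 17.8 to 22.9 TPM at 24 h. Within the list the levels were uneven, with Pax5 at up to 15.7 TPM, Cd79a at up to 9.18 TPM and Ms4a1 at no more than 0.150 TPM in any library. None of the 7 was tested in RM-9, and of 3 tested in MC-38, Pax5 and Cd79a were higher at 12 h and 24 h, beside the shares of all genes given above. Of the neutrophil genes 0 passed at any RT time, and of the dendritic cell genes 1 was higher in MC-38 at 12 h and at 24 h. The p53 target genes Mdm2 and Cdkn1a, which respond to DNA damage, rose at 3 h in RM-9 (log2 change 1.27 and 0.96, limma adjusted p = 0.0150 and 0.0106) and in MC-38 (1.11 and 0.80, adjusted p = 0.0121 and 0.0195), in the same libraries where no T cell identity gene passed.

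Across libraries the members varied together. Over the 15 RM-9 libraries, pairs of the 5 tested members had a median Pearson r of 0.832 (0.733 to 0.922, 10 pairs), and over the 16 MC-38 libraries pairs of 9 members had a median r of 0.756 (0.389 to 0.954, 36 pairs). After group means were taken out, the medians were 0.732 and 0.774. Libraries of a pair share depth and composition, and these values are descriptions. Among 12255 other genes, those most like the members' mean log2 level in both models were Ptprcap (r of 0.951 in RM-9 and 0.953 in MC-38), Trbc2 (0.930 and 0.974), Ltb (0.884 and 0.875), Clec12a (0.905 and 0.847) and Trac (0.874 and 0.845). Ptprcap, which encodes a partner of the leukocyte phosphatase CD45, changed by -1.23 in RM-9 and -0.95 in MC-38 at 12 h, and Ltb, a lymphotoxin chain, by -1.03 and -0.84. Clec12a, a receptor of myeloid cells, is among these 5 and changed by -1.13 and -1.68.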

How the data were processed

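RNA from about 50 mg of each tumor was made into stranded mRNA libraries and sequenced with single-end 75-base reads. The deposited tables give coverage, FPKM and TPM per gene, all computed by the authors. TPM were analysed, and the deposited FPKM and coverage served to recover depth, and the estimated reads of Cd2. The submitters' notes name bcl2fastq 2.17 and GRCm39, yet the coordinates match GENCODE M21 on GRCm38 (91.1% of 45137 shared gene IDs have the same start or end). The aligner and counter were not given in the sources used here. Each library is a separate mouse per the labels.

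Genes with a mean of at least 0.5 TPM were tested by limma 3.58.1 (R 4.3.3) on log2(TPM + 0.5), 4 groups per model (14013 genes in RM-9, 15698 in MC-38) and 8 groups for comparisons between models (15358 genes), with an intensity trend and Benjamini-Hochberg adjustment at 0.05 over all genes. The procedure was tested on simulated data. Exact permutation tests were two-sided, on differences of mean TPM. Permutations were enumerated in Python 3.11.15 with numpy 2.4.6. Dunnett comparisons and the adjustment of permutation p-values used scipy 1.17.1, tables pandas 2.3.3 and plots matplotlib 3.10.9. Alternatives covered pseudocounts, filters, scaling, covariates, blocks and left-out mice.

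The members and the 14 gene lists were chosen with earlier results of these data known. Named in the text were all members, the listed genes past the threshold with the smallest adjusted p, the highest-expressed marker genes and the 5 genes most like the members. Il2rb, Cd5, Il7r, S1pr1, Sh2d1a, Cd247, Trbc1, Ikzf2 and Ms4a1 were named after their values were seen. Counting intervals cannot be set for TPM other than through depth. Cd28 has a second ID on an alternate scaffold, listed at 0.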

Additional observations from a re-analysis of the deposited data

Results flagged for a closer look

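In 5 of 70 groups of 4 mice, 1 mouse stood so far from the rest that its gap exceeded Dixon's critical value, where chance alone would give about 1 in 20 groups. In MC-38 tumors at 12 h, mouse 3 was the highest for Cd3d (2.85 TPM, others 1.73 to 1.88), Cd8a (3.53 TPM, others 1.53 to 1.61) and Foxp3 (0.387 TPM, others 0.172 to 0.204). In RM-9 tumors at 12 h, mouse 1 was the highest for Cd3g (1.25 TPM, others 0.296 to 0.449) and Cd8a (0.203 TPM, the others listed at 0). The members are correlated across libraries, so flags in the same mouse are not separate events.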

How the results depend on the processing

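The members called lower numbered 3 in RM-9 at 12 h, 4 in MC-38 at 12 h and 3 in MC-38 at 24 h, and 0 in the other RT comparisons. Median-ratio scaling gave 0, 8 and 6, and 1 in RM-9 at 3 h, beside 6, 1541, 1279 and 158 lower among all genes. The RM-9 12 h count was 0 without mitochondrially encoded genes, with no filter on low values, and with only the 2 groups compared, which gave 2 and 0 in MC-38 at 12 and 24 h. Over all genes, 69, 557 and 276 were lower in those RM-9 12 h fits. Scaling to pan-leukocyte genes gave 0 in all 3, where 0, 66 and 8 of all genes were lower. A muscle score as covariate gave 0 in RM-9 and 2 in MC-38 at 12 h, beside 0 and 193 lower among all genes. Both alternatives were chosen after seeing the data. Dunnett comparisons, not adjusted over genes and run on the members only, gave 2 and 1 in RM-9 at 3 and 24 h and 3 in MC-38 at 3 h. The cause of these changes was not tested. Without 1 mouse, the counts ranged over 0 to 1 (RM-9 3 h, 1 without control mouse 3), 0 to 3 (RM-9 12 h), 1 to 8 (MC-38 12 h) and 0 to 3 (MC-38 24 h), and over 0 to 1 for the 12 h difference between models (1 without MC-38 12 h mouse 3). All-gene counts are not set beside these ranges. A filter of 5 TPM left no member in any comparison. In RM-9 at 12 h, all genes called went from 10 higher and 1163 lower to 13 and 6 under median-ratio scaling, and in MC-38 the 4469 higher and 406 lower became 993 and 1541.

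Mouse numbers did not pair the samples: same-numbered mice had a median correlation of -0.0725 in MC-38 and -0.0607 in RM-9. With the number as a replicate block, the counts of called members were 2 in RM-9 at 12 h and 4 and 2 in MC-38 at 12 and 24 h. Over all genes, 1076, 417 and 89 were lower in those comparisons. Between models 6 members were called, beside 6840 of all genes higher in MC-38. The members tested there include Cd3e, Cd8a and Cd8b1, which passed the filter only through MC-38, so that count is a description.

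Signs turned only for values that had not passed, with the exception of Cd2 between models. Scaled to pan-leukocyte genes, the log2 change in MC-38 was 0.013 for Cd8b1, 0.15 for Cd28 and 0.018 for Lck at 3 h, and 0.036 for Cd3d, 0.083 for Cd8a, 0.0099 for Cd8b1, 0.27 for Cd28 and 0.29 for Lck at 12 h. At 24 h Cd28 was 0.0095. The difference between model controls was then -0.53 for Cd4, which passed, and -0.38 for Cd2, and -0.31 and -0.049 under median-ratio scaling, and -0.18 for Cd4 without mitochondrially encoded genes. Without 1 mouse, Cd28 in MC-38 ranged from -0.16 to 0.073 at 3 h and from -0.19 to 0.12 at 24 h, and Cd4 between models from -0.0027 to 0.25.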
